A study of Sus scrofa with 8 samples.

Results

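The microRNAs miR-424, miR-503, miR-450 and miR-542 form an X-linked cluster. They were measured here in the corpus luteum of the pig, a gland that forms in the ovary after ovulation and secretes progesterone. Every non-control target of the array was taken whose name, apart from the species prefix, bears the number of 1 of these miRNAs, whatever its signal. This gave 10 of the 686 targets, all porcine and read by 22 of the 1683 probes. They were ssc-miR-503, both strands of miR-424 (ssc-miR-424-5p and ssc-miR-424-3p), both strands of miR-542 (ssc-miR-542-5p and ssc-miR-542-3p), ssc-miR-450a, both strands of miR-450c (ssc-miR-450c-5p and ssc-miR-450c-3p) and both strands of miR-450b. The prefix ssc, for the pig, is left out below. The cluster was chosen on its measured difference between pregnant and cyclic glands in an earlier reading of the same arrays, so the comparison of pregnant with cyclic glands is given below as a description, and nothing is concluded from tests of it.

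The pregnant group held 4 crossbred gilts of 1 commercial herd, 6 to 8 months old and inseminated 12 and 24 hours after the second estrus was seen, whose luteal tissue was taken on day 14 of pregnancy. The cyclic group held 4 gilts of the same herd and age that were not inseminated, sampled on day 14 of the estrous cycle. Total RNA of each tissue sample was labelled with Cy3 and hybridised to its own 1-colour Agilent miRNA array, and the labels call the samples biological replicates. RNA came from bulk luteal tissue, so that fewer cells of a type and less RNA per cell cannot be told apart.

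MicroRNAs are short RNAs cut from hairpin precursors that base-pair with messenger RNAs and lower their output. The hairpin has a 5p and a 3p strand, of which 1 is often kept and the other degraded. In human and mouse the hairpins of this cluster lie close together on the X chromosome and can be made from a shared primary transcript. miR-503 and miR-424-5p belong to the extended miR-15 seed group, known in human and mouse cells for holding back the cell cycle through cyclins and other G1 regulators, and miR-542-3p is known in human cells for repressing survivin, an inhibitor of apoptosis. In the gene table of the pig assembly Sscrofa11.1, 4 of the 6 hairpins could be matched by name, and MIR450B, MIR450A, MIR450C and MIR542 followed each other there with no other listed gene among them, between HPRT1 and PLAC1. The strands were measured with probes of the array design, each printed in 5 or 10 spots.

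Signals are given as log2 of the background-subtracted intensity relative to the array's 75th percentile over targets detected on all 8 arrays, so that −1 means that a target was at a level of 0.5 of that percentile. The percentile was 189 to 316 intensity units per array. For detection on an array, 0.5 or more of the spots of 1 of a target's probes had to be well above background, and signals below −4.86 were set to that floor. Targets detected on at least 4 of the 8 arrays, 212 in all, were tested, among them 6 of the 10 cluster targets. No spot was saturated (0 on each array), and 22.8% to 28.8% of an array's spots were well above background. Slide 1 carried pregnant replicates 1 and 2 and was scanned on day 1. Slide 2 carried cyclic replicates 1 and 2, slide 3 carried replicates 3 and 4 of each group, and these slides were scanned on day 2. Of the miRNAs that mark other tissues, those of skeletal muscle (6 targets) and liver (2 targets) were detected on 0 arrays, while both strands of the gonad-enriched miR-202 and of the endothelial miR-126 were tested. No miRNA specific to luteal cells was used as a marker.

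The 6 tested miRNAs of the cluster were brighter in pregnant than in cyclic glands, by 1.66-fold to 2.62-fold. Their median log2 difference was 0.92, against 0.00376 for all 212 tested targets, and the 6 ranked 1, 2, 3, 6, 10 and 11 among those targets, counted from the most positive difference. In each of the 6, every pregnant array lay above every cyclic array. Among all tested targets, 9.91% had groups that did not overlap with pregnancy higher (17.0% in either direction). In the limma fit over all targets, 5 of the 6 were past the threshold, beside 5.19% of all targets higher in pregnancy (11.3% in either direction). That count was 3, 2 and 1 of the 6 without pregnant replicates 1, 2 and 4, and 1 and 2 of the 6 without cyclic replicates 3 and 4. It was 0 of the 6 with scan day as a block and 1 of the 6 within slide 3. With slide as a fixed block it was 6, and with slide as a random block 4. Since the cluster was chosen on this contrast, nothing is read from these counts. miR-424-3p also entered the 6 through the pregnant arrays alone, which were enough for the detection filter.

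**Figure D1:**
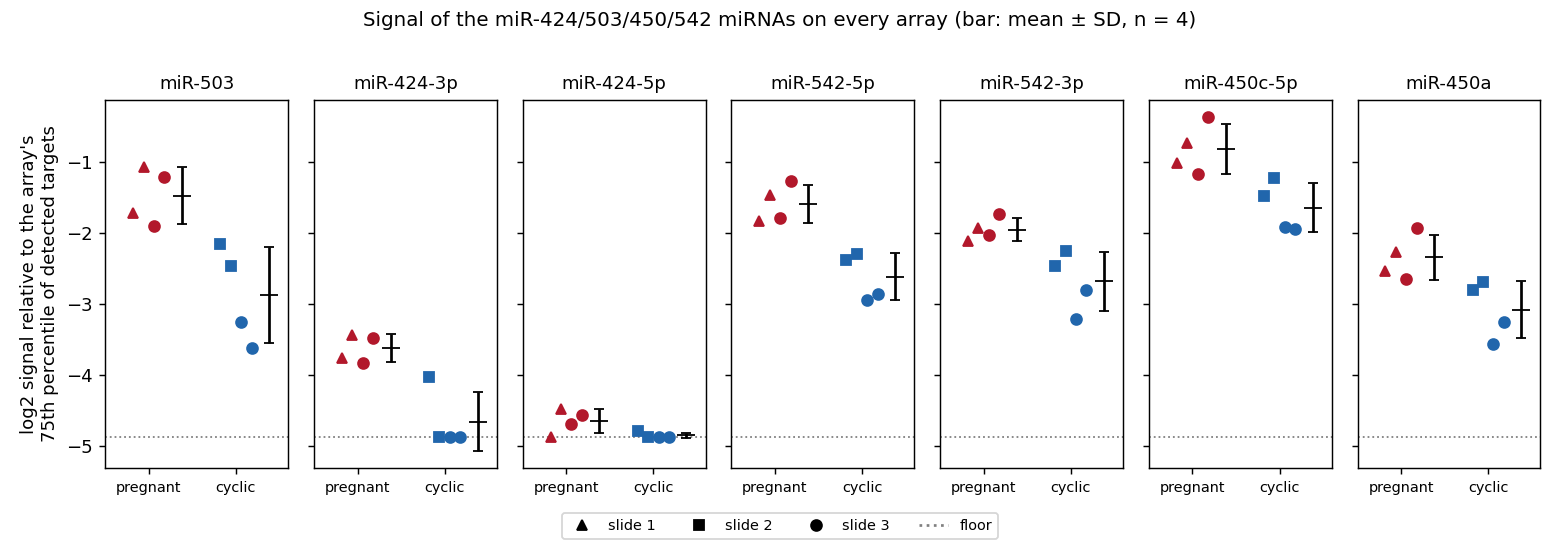
Signal of miR-503, the 2 strands of miR-424 and miR-542, miR-450c-5p and miR-450a on each of the 8 arrays, as log2 relative to the array's 75th percentile (vertical axis); points are arrays, shaped by slide, with the mean and SD of the 4 arrays of a group beside them, and the dotted line is the floor of −4.86. The pregnant arrays lie above the cyclic ones for all but miR-424-5p, and the cyclic arrays of slide 2 lie above those of slide 3 where they are off the floor.

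miR-503, of the miR-15 seed group, read −1.73, −1.07, −1.91 and −1.21 on pregnant replicates 1 to 4, and −2.15, −2.47, −3.25 and −3.62 on cyclic replicates 1 to 4 (log2 signal). The 2 groups did not overlap, and the lowest pregnant array was 0.24 above the highest cyclic one. The means were −1.48 ± 0.40 in pregnancy and −2.87 ± 0.68 in the cycle (SD, n = 4 each), a log2 difference of 1.39 ± 0.32 (SE), or 2.62-fold. This was the widest separation of means in the cluster, and miR-503 also had the largest SD among the cyclic arrays. Before scaling, its probe gave intensities of 83.2, 113, 80.2 and 81.4 units in pregnancy and 51.4, 53.7, 20.3 and 25.8 units in the cycle, while negative control spots had medians of 0.437 to 1.29 units. Even the single spots were apart: the dimmest of its 40 spots on the pregnant arrays gave 73.7 units and the brightest of its 35 on the cyclic arrays 56.9 units.

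The strands of miR-424, the partner of miR-503 in the seed group, lay near the limit of detection. miR-424-3p read −3.76, −3.43, −3.83 and −3.48 on the pregnant arrays, against −4.03 on cyclic replicate 1 and the floor of −4.86 on cyclic replicates 2, 3 and 4. It was thus measured on 4 pregnant arrays and 1 cyclic array, and the log2 difference of 1.03 ± 0.21 (SE) rests on where the floor was set. It was 0.24 with the floor doubled, and 1.51 in the authors' deposited table. Unscaled intensities were 20.4, 21.9, 21.2 and 17.0 units in pregnancy and 14.0, 8.70, 5.35 and 8.999 units in the cycle, in which the groups again did not overlap. The 5p strand, which carries the miR-15 seed, was detected on 3 pregnant arrays and 0 cyclic arrays, too few to be tested. Detection was judged on spots and not on the scaled signal. Pregnant replicate 1 was thus detected (7 of 10 spots well above background) though its scaled signal was at the floor. Pregnant replicate 4 was not detected (1 of 10). Its log2 signals were −4.86, −4.47, −4.69 and −4.56 on pregnant replicates 1 to 4, and −4.79, −4.86, −4.86 and −4.86 on cyclic replicates 1 to 4, so the groups overlapped. Its unscaled intensities were 9.39, 10.6, 11.7 and 7.99 units in pregnancy and 8.29, 9.51, 3.04 and 7.81 units in the cycle, and no clear separation is seen at this signal.

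Both strands of miR-542 were detected on all 8 arrays. miR-542-5p read −1.84, −1.47, −1.79 and −1.27 in pregnancy and −2.38, −2.29, −2.94 and −2.86 in the cycle (log2 signal). With 0.46 between the lowest pregnant and the highest cyclic array, its gap was the widest of the cluster. The log2 difference was 1.03 ± 0.20 (SE), or 2.04-fold. miR-542-3p, the strand known for repressing survivin, read −2.11, −1.93, −2.03 and −1.74 in pregnancy and −2.46, −2.25, −3.21 and −2.80 in the cycle. Here the pregnant arrays were close together (−1.95 ± 0.16) and the cyclic arrays spread (−2.68 ± 0.42, SD, n = 4 each), with cyclic replicate 3 the lowest. Its unscaled intensities were 63.6, 61.8, 73.8 and 56.6 units in pregnancy and 41.5, 62.4, 20.9 and 45.2 units in the cycle. Unscaled, cyclic replicate 2 lay above pregnant replicates 2 and 4, so that without scaling the groups of 5 of the 6 tested miRNAs stood apart. The log2 difference was 0.73 ± 0.21 (SE), or 1.66-fold. The level of 1 strand cannot be set against that of the other, whose probes differ, but the gap between the strands can be followed across arrays. miR-542-5p minus miR-542-3p was 0.28, 0.46, 0.24 and 0.46 on pregnant arrays and 0.083, −0.039, 0.27 and −0.057 on cyclic arrays (log2). Cyclic replicate 3 lay within the range of the pregnant arrays, so the groups overlapped in this measure.

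Of the miR-450 strands, miR-450c-5p and miR-450a were detected on all 8 arrays. miR-450c-5p read −1.02, −0.74, −1.17 and −0.37 in pregnancy and −1.49, −1.23, −1.92 and −1.95 in the cycle (log2 signal). The log2 difference was 0.82 ± 0.21 (SE), or 1.77-fold. miR-450a read −2.53, −2.27, −2.65 and −1.93 in pregnancy and −2.80, −2.69, −3.55 and −3.26 in the cycle, with a log2 difference of 0.73 ± 0.23 (SE), or 1.66-fold. After scaling, these 2 miRNAs were the least clearly separated of the tested ones, while unscaled it was miR-542-3p whose groups overlapped. Pregnant replicate 3 and cyclic replicate 2 were 0.058 apart for miR-450c-5p and 0.047 apart for miR-450a, both in log2 and both with pregnancy higher. In the unscaled intensities of miR-450a the pregnant arrays were nearly level (47.6, 49.0, 48.1 and 49.5 units), while the cyclic ones ran over 32.7, 46.0, 16.5 and 33.0 units. The other strand of miR-450c, miR-450c-3p, and both strands of miR-450b were detected on 0 of 8 arrays. Their mean intensities lay between −1.67 and 1.64 units, which is within the noise of the local background, and no difference could be seen at that signal.

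The spread of repeated spots was small beside these differences. The median coefficient of variation between the spots of the probe used was 5.20% for miR-450c-5p, 5.39% for miR-450a, 6.05% for miR-503, 7.25% for miR-542-3p and 8.81% for miR-542-5p over the arrays, and 13.0% for miR-424-3p over the 5 arrays that detected it. A second probe gave nearly the same log2 difference as the one used. It was 1.41 for miR-503 (1.39 with the probe used), 0.75 for miR-450a (0.73) and 0.76 for miR-542-3p (0.73). The 2 dimmer detected probes of miR-542-5p gave 1.05 and 1.01 (1.03). In all, 13 of the 22 probes were detected on at least 1 array. The second probes of miR-450c-5p and miR-424-3p, detected on 0 arrays and on 1 array, gave no second reading. Probes of 1 target read the same RNA extract on the same array, so they speak of the measurement and not of the animals.

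**Figure D2:**
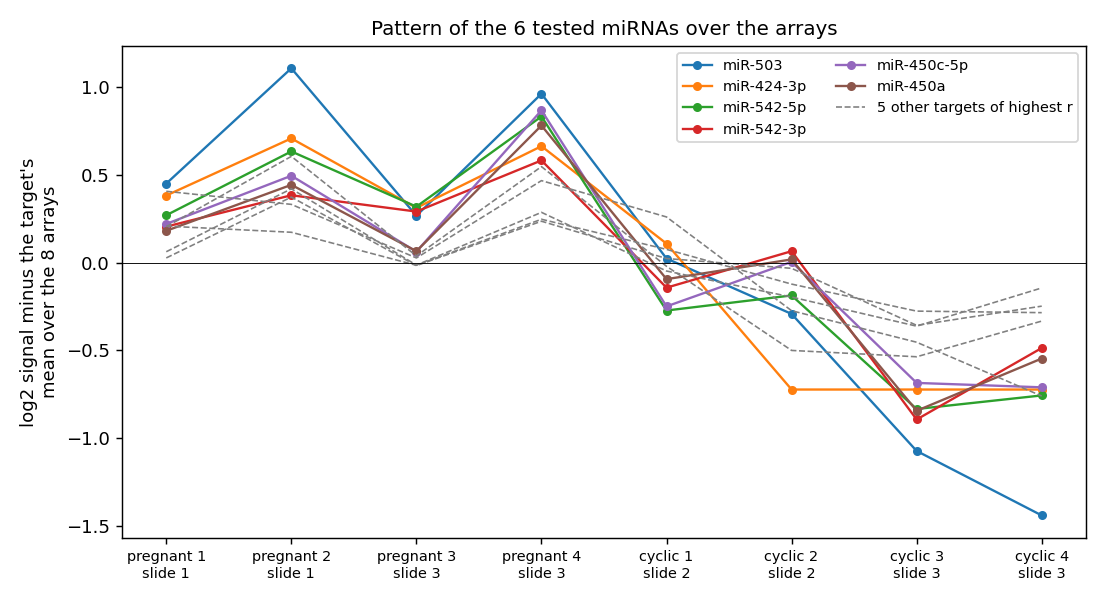
Log2 signal of the 6 tested miRNAs on each array after the target's own mean over the 8 arrays was subtracted (vertical axis), by array and slide; grey dashed lines are the 5 other targets with the highest correlation to the cluster's mean pattern. Lines join the values of a target and imply no order. On pregnant replicates 2 and 4 the 6 stand above replicates 1 and 3, and on cyclic replicates 3 and 4 they are lowest, miR-424-3p being at its floor on replicate 2 as well.

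Around their group means the cluster's miRNAs also went up and down together over the 8 arrays, a feature that the difference between the groups does not set. The deviations of both groups were pooled, and no correlation was computed within either group alone. After the group means were removed, the 10 pairs among the 5 miRNAs detected on all 8 arrays had Pearson correlations of 0.715 to 0.972 with a median of 0.893 (n = 8 arrays, given as a description). For all 22366 pairs of tested targets the median was 0.060. With miR-424-3p added, whose cyclic values are mostly at the floor, the 15 pairs ran from 0.413 to 0.972 with a median of 0.822. The closest pair was miR-450a with miR-542-5p, and the least close miR-503 with miR-542-3p. The values share each array's scaling, and without scaling the 10 correlations ran from 0.693 to 0.983. No unscaled value was computed for all pairs of tested targets. Among the pregnant arrays the unscaled intensities did not share an order, miR-503 being highest on replicate 2 and miR-542-3p on replicate 3.

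Some of this common movement was seen among the cyclic arrays. Cyclic replicates 1 and 2 on slide 2 lay above cyclic replicates 3 and 4 on slide 3 in 5 of the 6 tested miRNAs, which was so for 17.9% of all tested targets. miR-503 averaged −2.31 on slide 2 and −3.43 on slide 3 in the cycle, a log2 difference of 1.12, and the median over the 6 miRNAs was 0.61 (−0.021 over all tested targets). Without scaling, cyclic replicates 1 and 2 lay above cyclic replicates 3 and 4 in 2 of the 6 and in 20 of the 212 targets. That comparison was added after the data were seen. The unscaled log2 differences were no smaller, 0.64 to 1.20 for the 5 miRNAs detected on all arrays, against 0.57 to 1.12 with scaling. Animal and slide cannot be told apart in this split of 2 gilts against 2. Erythroid and fibroblast miRNAs also stood apart between these arrays. The summed signal of the erythroid miRNAs (2 of 4 targets detected, miR-451 and miR-144, with miR-486 not detected) was 7.22 and 4.82 times the 75th percentile on cyclic replicates 1 and 2, but 1.32 and 1.27 times on cyclic replicates 3 and 4. Among the pregnant arrays it ran the other way to the cluster, with 2.01 and 1.25 times on replicates 2 and 4, where the cluster was higher, and 6.19 and 4.94 times on replicates 1 and 3. The leukocyte sums of cyclic replicates 1 and 2 (0.851 and 2.36) overlapped with those of cyclic replicates 3 and 4 (2.02 and 5.23). For the fibroblast miRNAs (miR-199 and miR-214, 5 of 6 targets detected) the sums were 3.57 and 4.62 on cyclic replicates 1 and 2 and 8.49 and 6.09 on cyclic replicates 3 and 4. Their part in the cluster's values was not tested.

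Pregnant replicates 2 and 4 lay above pregnant replicates 1 and 3 in all 6 tested miRNAs, as they did in 37.7% of all tested targets, a split that was chosen after the values were seen. The median log2 difference between these pairs of arrays was 0.46 over the 6 and 0.13 over all 212. They were also the 2 pregnant arrays with the lower 75th percentile, 236 and 189 units, against 275 and 301 units for replicates 1 and 3. Without scaling the median was 0.017 over the 6 and −0.28 over all 212, and the single miRNAs ran from −0.21 for miR-542-3p to 0.23 for miR-503 in log2. Among the pregnant gilts, slide 1 minus slide 3 ran from −0.14 for miR-542-3p to 0.16 for miR-503 in log2, and 0 of the 6 had both slide 1 arrays above both slide 3 arrays (17.5% of all targets). Here too animal, slide and scan day cannot be told apart.

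The difference between pregnant and cyclic glands was present within slide 3, which held 2 arrays of each group. There it was 1.87 ± 0.33 for miR-503, 1.37 ± 0.26 for miR-542-5p, 1.16 ± 0.31 for miR-450c-5p, 1.13 ± 0.26 for miR-542-3p and 1.12 ± 0.33 for miR-450a (log2, SE, n = 2 per group). miR-424-3p was at the floor on both cyclic arrays of this slide, so that its value there, 1.21, is set by the floor and has no measured spread in the cycle. All 6 had both pregnant arrays above both cyclic arrays on this slide, as had 28.8% of all tested targets. These within-slide values were larger than those over all arrays, and both cyclic arrays of slide 3 were low. On scan day 2 alone, with 2 pregnant and 4 cyclic arrays, the log2 differences were 1.31 ± 0.41 for miR-503, 1.09 ± 0.28 for miR-542-5p, 0.87 ± 0.29 for miR-450c-5p, 0.80 ± 0.30 for miR-542-3p and 0.79 ± 0.32 for miR-450a. No such value exists for slides 1 and 2, each of which held 1 group alone.

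**Figure D3:**
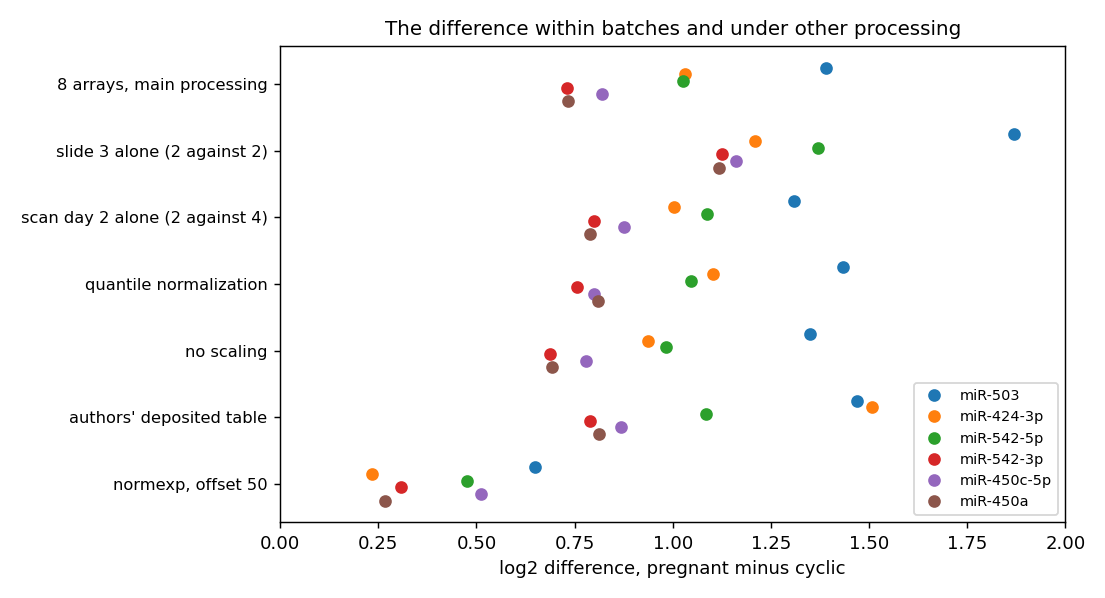
Log2 difference between pregnant and cyclic glands (horizontal axis) of the 6 tested miRNAs, in rows for all 8 arrays, for slide 3 and for scan day 2 alone, and for other ways of processing the 8 arrays. All points are above 0; the points move right within slide 3, where miR-503 reaches 1.87, and left with normexp, where the range is 0.23 to 0.65.

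Leukocyte miRNAs, of which 8 of 16 targets were detected, had summed signals of 1.01 to 1.23 times the 75th percentile on the pregnant arrays and 0.851 to 5.23 times on the cyclic arrays. Cyclic replicate 1 was the lowest and cyclic replicate 4 the highest. The groups overlapped in this sum, as they did in the erythroid sum (1.25 to 6.19 in pregnancy and 1.27 to 7.22 in the cycle) and in the fibroblast sum (3.85 to 4.31 and 3.57 to 8.49). Among the single leukocyte markers, miR-155-5p was lower in pregnancy by limma's test, with a log2 difference of −0.96 ± 0.25 (SE), and its groups overlapped. It was the 1 target called of the 8 tested in this list, a share near the 11.3% called among all tested targets. hsa-miR-223-3p (−2.29 ± 0.76) and miR-142-5p (−0.65 ± 0.45) did not pass the test, the first having the most negative difference of all 212 targets. The remaining tested leukocyte targets did not pass either. They were bta-miR-155 (−0.34), mmu-miR-342-3p (−0.10), miR-146a-5p (−0.01), miR-150 (0.01) and hsa-miR-146b-5p (0.04). The 4 miR-199 targets of the fibroblast list had log2 differences of −0.53 to −0.34 and miR-214 of the same list 0.11, none of them past the test. Of 2 targets known to be induced by gonadotropins in ovarian cells, miR-132 was tested. It was lower in pregnancy by limma's test (−1.35 ± 0.38, SE), and its groups overlapped. The gonad-enriched miR-202-3p (0.74 ± 0.33) and miR-202-5p (−0.28 ± 0.17) did not pass, and their groups overlapped. Without cyclic replicate 1, which had the lowest leukocyte sum, the median difference of the 6 cluster miRNAs was 0.99, and without cyclic replicate 4, which had the highest, it was 0.83. Endothelial miRNAs (2 of 2 targets detected) summed to 7.10 to 8.73 times the percentile in pregnancy and 6.29 to 7.49 times in the cycle, smooth muscle miRNAs (4 of 4) to 1.28 to 1.65 and 1.25 to 1.87 times, and epithelial miRNAs (2 of 10) to 0.0951 to 0.149 and 0.0913 to 0.175 times. Whether a changed share of these cells has a part in the cluster's difference was not tested.

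The other tested porcine miRNAs with the miR-15 seed come from loci outside the X-linked cluster. Of the 10 array targets named miR-15, miR-16, miR-195, miR-322 or miR-497, 5 were tested, none of them a miR-322 target. None passed the test in either direction (0 higher and 0 lower in the limma fit, and 0 with an unadjusted p under 0.05), where 11.3% of all tested targets did, a share at which 0 of 5 is near the background, and in 0 of the 5 did the groups stand apart (17.0% of all targets). Their log2 differences were −0.08 ± 0.15 for miR-15a, 0.30 ± 0.15 for miR-15b, −0.05 ± 0.15 for miR-16, −0.09 ± 0.13 for miR-195 and 0.12 ± 0.16 for miR-497 (SE, n = 4 per group), with a median of −0.055 beside 0.92 for the cluster. The median is given as a description, and the difference between the 2 sets was not tested since the cluster was chosen on this contrast. A second X-linked cluster, miR-106a to miR-363, lies on the far side of HPRT1 in the same gene table and was looked up after the values were seen. Of its 9 array targets 5 were tested and 0 passed in limma (1 with an unadjusted p under 0.05, and 11.3% of all targets passing), with a median log2 difference of −0.27. The values ran from −0.30 ± 0.15 for miR-19b to 0.44 ± 0.18 for miR-92a, the 1 target of the 5 whose groups did not overlap. Hairpins of miR-19b and miR-92a also exist outside that cluster.

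**Figure D4:**
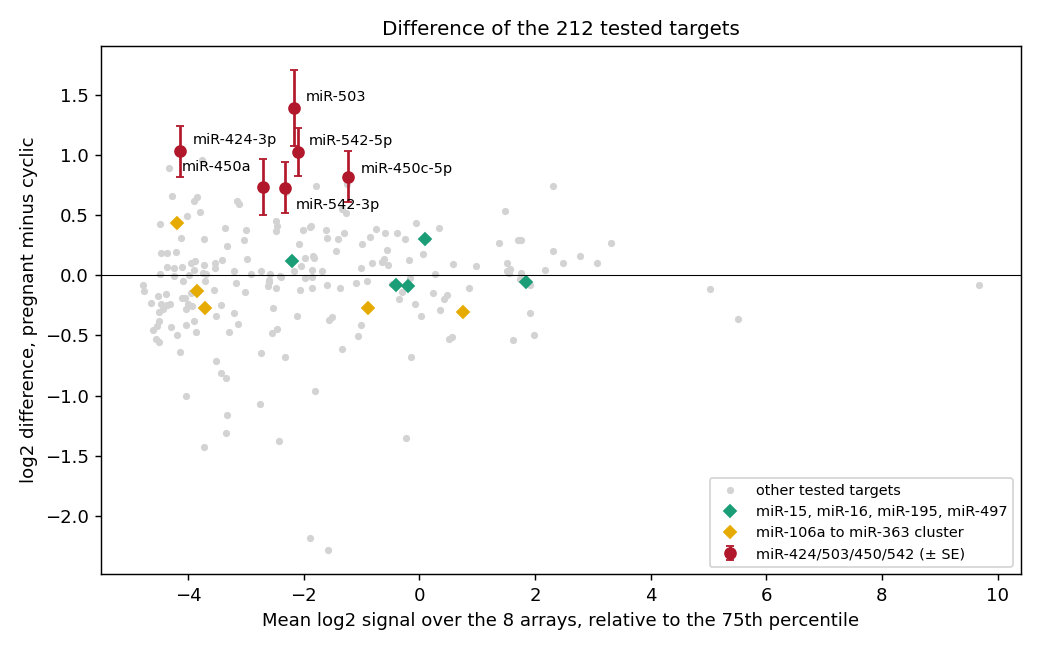
Log2 difference between pregnant and cyclic glands (vertical axis) against the mean log2 signal over the 8 arrays (horizontal axis) for the 212 tested targets; red points with SE are the 6 cluster miRNAs, green diamonds the tested miR-15, miR-16, miR-195 and miR-497 targets, yellow diamonds the neighbouring miR-106a to miR-363 cluster. The red points lie between 0.73 and 1.39 and the green ones between −0.09 and 0.30.

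Among the 206 tested targets outside the cluster, those whose pattern over the 8 arrays was most like the cluster's mean pattern were bta-miR-500 (r = 0.937), miR-30d (0.936), miR-532-3p (0.913), miR-532-5p (0.902) and miR-423-3p (0.899). The quartiles of r over all 206 were −0.526 and 0.608, with a median of 0.031. miR-532-3p read −2.11, −1.71, −2.28 and −1.77 in pregnancy and −2.33, −2.81, −2.85 and −2.65 in the cycle (log2 signal), with no overlap and a log2 difference of 0.70 ± 0.18 (SE). For bta-miR-500 the log2 signals were −1.56, −1.22, −1.61 and −1.35 in pregnancy and −1.57, −1.62, −1.95 and −1.84 in the cycle, and the groups overlapped. Its log2 difference was 0.31 ± 0.15 (SE). The porcine target of the same number, miR-500, had a difference of −0.15 ± 0.18. It lay near the floor, with means of −4.46 in pregnancy and −4.31 in the cycle. Of the 5 targets 3, 2 and 2 stayed among the most similar 5 without cyclic replicates 1, 2 and 3. These correlations hold the difference between the groups as well as the movement within them. With group means removed, the most similar targets were miR-152 (r = 0.942), miR-30e-5p (0.919) and bta-miR-500 (0.913), of which miR-152 and miR-30e-5p differed between the groups by 0.09 ± 0.13 and 0.03 ± 0.15 in log2. All r are over 8 arrays that share their scaling, and no p is given.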

How the data were processed

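Intensity values per spot were deposited by the authors as 8 scanner files, with background subtraction and spatial detrending from Agilent's Feature Extraction software (10.7.3.1 per the file headers, 10.7 per the submitters' processing notes). Genome builds and a test are not given in the sources used here. The authors also deposited a table for all spots, whose values were found to be log2 values, centred per spot and running in the same direction as the scanner values (slopes of 0.787 to 0.986 over 2178 bright spots); its scaling between arrays is unknown. Its columns had medians of −0.000302, 9.45e-05, −9.45e-05 and 0.0318 for pregnant replicates 1 to 4 and 0.0108, −0.000283, 0.000689 and −0.000205 for cyclic replicates 1 to 4. The deposited columns of cyclic replicates 2 and 4 count as a score, being log2 values but for 3 cells above 100 that were read as missing. It served as an alternative.

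Control and outlier spots were left out, spots were averaged per probe, each array was divided by its 75th percentile over targets detected on all arrays, signals were floored at 0.0344 (the 1st percentile of detected probes) and log2 was taken. The brightest probe of a target was used. Differences and SEs came from limma 3.58.1 (lmFit, eBayes with trend, 2-sided, Benjamini-Hochberg over 212 targets at 0.05) in R 4.3.3 with the data.table package (1.17.8); the fit was tested on simulated data. Normexp used median spot and background signals with an offset of 50. Python 3.11.15 with matplotlib 3.10.9 drew the figures. The cluster, the lists and the tests were chosen with earlier results of these data known. Named targets were the 10 members, the 5 targets of highest r, 3 of highest r with group means removed, and tested targets of the lists. The smooth muscle and epithelial lists are given as sums. The miR-106a to miR-363 cluster was added after its values were seen. Precision is limited by the number of arrays, 4 per group. Deviations of same-numbered arrays of the 2 groups had low correlations (r = 0.104, 0.098, −0.177 and 0.160 for replicates 1 to 4), and the numbers were not used as pairs.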

Additional observations from a re-analysis of the deposited data

Results flagged for a closer look

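The log2 signal of miR-424-3p on cyclic replicate 1, −4.03, stood apart from the other 3 cyclic arrays, which were all at the floor of −4.86, so that its gap to the nearest of them made up the whole range of the group, more than Dixon's test at the 95% level allows for 4 samples. Since 3 of the 4 values were set to the same floor, that ratio follows from the floor, and the usual chance rate of about 1 group in 20 does not apply.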

How the results depend on the processing

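All 167 recomputed differences of the 6 miRNAs kept their sign, and 16 moved by more than the spread between replicates. Many of the 167 could not move. Another detection filter, porcine targets alone, a replicate block and eBayes without trend left each difference as it was. Slide and scan day as fixed blocks gave the same differences as slide 3 and scan day 2 alone, but for slide the counts of calls were not the same. These counts are therefore no measure of steadiness. The largest move was with normexp, whose offset of 50 units is as large as many of the cluster's signals: there the median difference was 0.39, 3 of the 6 had groups that did not overlap, 3 were called, and 11 targets were called in all. Over the same 6, the median otherwise ran from 0.74 with the mean of all probes to 1.19 within slide 3. With no filter it was 0.73, but over all 10 cluster targets, and the differences of the 6 did not change there. The number of the 6 called and of all targets called (5 and 24 as reported) was less steady. It was 2 and 15 with quantile normalization, 2 and 9 without scaling, 2 and 10 with the scanner's total gene signal, 3 and 19 with the mean of all probes, 2 and 11 for targets detected on at least 1 array, 0 and 1 with no filter (686 targets tested), 1 and 9 with the floor doubled, 1 and 9 within slide 3, and 0 and 2 with scan day as a block and within that day. With the 75th percentile over all probes 62 targets were called, and this scaling shifted the median of all targets by 0.30; 55 of the 62 were higher in pregnancy, against 11 of 24 as reported. The share of higher calls was 3 of 9 without scaling, 14 of 24 in the authors' deposited table and 7 of 15 with quantile normalization. With slide as a fixed block 6 of the 6 and 27 targets were called, and with slide as a random block 4 and 21. With a replicate block 5 of the 6 and 26 targets were called. Of the 8 arrays, 4 were closest to the array of their own number, and whether the numbers mark pairs is not settled by these values. Without 1 array in turn the median ran from 0.79 to 1.01, the groups of all 6 stayed apart, 1 to 6 of the 6 were called and 7 to 81 targets. Of the 6, 6, 5, 1 and 2 were called without cyclic replicates 1, 2, 3 and 4, and 3, 2, 4 and 1 without pregnant replicates 1, 2, 3 and 4; all targets called were 81, 12, 7 and 9, and 10, 10, 11 and 7. Of the 5 targets most like the cluster, 2 to 5 stayed among the first 5 without 1 array, and 1 did with group means removed. The cause of these moves was not tested. Targets near the floor, such as miR-424-3p and miR-424-5p, are limited by their signal over background.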
